A study of Sus scrofa with 226 samples.

Results

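Cultured sensory neurons of the pig dorsal root ganglion were sorted by how far their membrane potential fell after an action potential, and the neurons with a deep afterhyperpolarisation were compared with those with a shallow one. The column Min_AHP of the deposited cell table, read here as the lowest potential of the afterhyperpolarisation, was split at its median within each animal and each day in culture. Neurons below the median formed the deeper group and neurons at or above it the shallower group, so the members were chosen by their measured Min_AHP. Every neuron had a value, and the split put 47.3% of them in the deeper and 52.7% in the shallower group. The table states no units, so recorded values are given as it lists them.

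The study recorded single neurons with a patch pipette and then sequenced each of them (Patch-seq), with libraries made by Smart-Seq2. The neurons came from 10 pigs of wild-type genotype aged 11 to 20 weeks, from cervical, thoracic and lumbar ganglia that had been minced, digested and dissociated. Both groups held neurons of every animal: the deeper group had 59 neurons at 1 day in culture, 37 at 2 days and 11 at 3 days, and the shallower group 65, 41 and 13. All neurons had been dissociated and cultured before recording, and the labels name no treatment. The animal was the replicate, and an animal gave 3 to 18 neurons to a group; animal 8 gave 3 to each. The design text states the aim of finding molecular markers of mechano-insensitive C-fibres, and the comparison by afterhyperpolarisation uses the same recordings.

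After each action potential, potassium leaving the cell carries the membrane below its resting level, and this afterhyperpolarisation helps to set how soon a neuron can fire again. Large-conductance calcium-activated channels (BK, encoded by KCNMA1), small-conductance ones (SK, encoded by the KCNN genes) and delayed rectifiers of the Kv families carry most of this current, while HCN channels and the sodium pump shape the return to rest. In dorsal root ganglion neurons a broad action potential followed by a long afterhyperpolarisation is a familiar mark of C-fibre nociceptors.

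Min_AHP ran from -86.0 to -70.7 with a median of -77.7 in the deeper neurons and from -80.2 to -54.1 with a median of -70.4 in the shallower neurons. These values chose the groups, so they are a description only. The ranges overlapped because the median itself moved between animals and days, from -80.6 in animal 7 at 1 day to -68.3 in animal 2 at 2 days. Taken over animals, the median neuron stood at -75.8 after 1 day, at -71.6 after 2 and at -73.9 after 3. Animal means were -77.8 ± 1.33 (SD, n = 10) in the deeper and -70.1 ± 1.91 in the shallower group. Measured from the potential just before the action potential (the column RMP_beforeAP), the afterhyperpolarisation reached -16.8 ± 1.56 in the deeper and -10.2 ± 1.64 in the shallower neurons, and every animal kept that order. The boundary was not a gap. Of all neurons 41 (18.1%) lay within 1 unit of their median, 16 of them deeper and 25 shallower. In animal 9 at 1 day, for example, the nearest values on either side were -74.8 and -74.5. Of all neurons 76.5% stayed in the same group when the split used the depth below RMP_beforeAP instead.

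**Figure D1:**
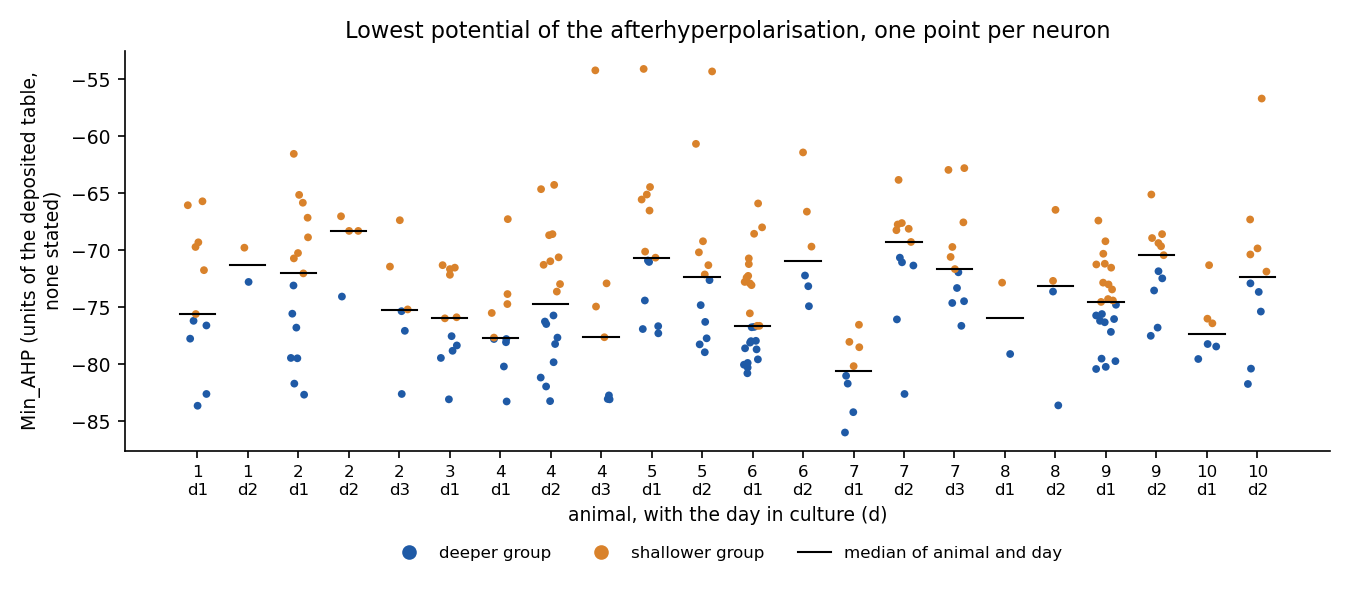
Min_AHP (vertical axis, table value without a stated unit) of each neuron, by animal and day in culture (horizontal axis), with the deeper group in blue, the shallower group in orange and the median of each animal and day as a black line. The lines lie between -80.6 and -68.3, and in most animals and days neurons sit on both sides close to the line.

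The cells carried neuronal transcripts in both groups. UCHL1, a deubiquitinase abundant in neurons, reached 10 CPM (counts scaled to the library total) in 100% of neurons of either group, and SNAP25, a protein of synaptic vesicle fusion, in 100% and 98.3%. PRPH, the intermediate filament peripherin of small sensory neurons, did so in 99.1% of deeper and 95% of shallower neurons. RBFOX3, the neuronal splicing factor NeuN, was low, with 3.7% and 4.2% of neurons at that level.

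Several properties of the action potential moved with the depth of its afterhyperpolarisation. They may have been read from the same spike as Min_AHP, so they were not independent of the split and were not tested. Rheobase, the smallest current that evokes an action potential, had animal means of 60.5 to 123.8 with a median of 107.6 in the deeper neurons and of 83.8 to 333 with a median of 170.6 in the shallower neurons. Its mean was 100.8 ± 23.2 (SD, n = 10) against 187.2 ± 74, and it was lower in the deeper group in 8 of 10 animals. Spike threshold (AP_threshhold) was -46.3 ± 2.92 in the deeper and -41.9 ± 3.12 in the shallower neurons, lower in 9 of 10 animals. Deeper neurons thus started their spike at a more negative potential and with less current in most animals. A second current column, pA_threshold, did not follow Rheobase: its means were 93.9 ± 28 and 94.2 ± 63, with 5 animals on each side.

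The spike itself was of larger amplitude, steeper and shorter in most animals of the deeper group. The maximal slope (max_slope_raw) was 162.8 ± 21.2 in the deeper and 138.3 ± 12.1 in the shallower neurons, and amplitude (Apamp) was 108.7 ± 4.32 and 106.1 ± 5.10, each higher in 9 of 10 animals. The peak of the spike (AP_max) moved less, at 47.5 ± 4.01 and 46.3 ± 5.11, higher in 6 of 10. The potential before it (RMP_beforeAP) was -61.1 ± 0.637 and -59.8 ± 0.611, lower in 8 of 10. Spike duration (APD) was 2.97 ± 0.186 and 3.40 ± 0.643, shorter in 8 of 10. The slope below threshold (subthresh_slope) was 1.05 ± 0.369 and 1.62 ± 0.522. Shoulder, another column of spike shape, was 1.41 ± 2.05 and -0.743 ± 2.92, higher in 7 of 10. HS_Quotient, which the table does not define, had the same order in all 10 animals, at 2.56 ± 0.5676 in the deeper and 1.78 ± 0.346 in the shallower neurons. Within OSMR-low neurons, those with under 10 CPM of the oncostatin M receptor gene, Rheobase was 79.7 ± 22.7 against 165.1 ± 87.3 over 9 animals. Threshold there was -45.5 ± 1.98 against -41.2 ± 3.66. Maximal slope and amplitude were each higher in 7 of 9 animals. Spike duration was 2.83 ± 0.197 against 3.00 ± 0.583, shorter in 5 of 9. HS_Quotient was 2.28 ± 0.807 against 1.99 ± 0.396, higher in 6 of the 8 animals with values. When neurons were split by depth below RMP_beforeAP, Rheobase was 113.3 ± 29.4 against 177.3 ± 59.8. Spike duration, however, was then 3.20 ± 0.332 against 3.20 ± 0.545, with 5 animals on each side. Amplitude with that split was 107.8 ± 4.24 against 106.9 ± 5.23, higher in 7 of 10.

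The columns AHP_new, AHP_Tau and TTP are described in the same way. AHP_new had animal means of 23.2 to 44.9 in the deeper and 19 to 45.1 in the shallower neurons; the overall means were 30.9 ± 7.63 and 31.1 ± 8.55, and the deeper group was higher in 4 of 10 animals. AHP_Tau, by its name a time constant, had a median over neurons of 19.8 in the deeper and 19.1 in the shallower neurons with a value. Its animal means are not comparable, because 1 shallower neuron is listed at 6908. TTP had medians over neurons of 27.9 and 23.4 and animal means of 43.7 ± 17.4 and 39.5 ± 15.8, higher in the deeper group in 7 of 10 animals. Within OSMR-low neurons TTP was 45.4 ± 23.5 and 37.9 ± 20.6, higher in 8 of 9 animals. Within animals, the rank correlation across neurons of Min_AHP with AHP_new averaged -0.15 (range -0.51 to 0.14), with TTP -0.28 (range -0.71 to 0.49), with Rheobase 0.43 (range -0.35 to 0.74) and with AP_threshhold 0.49 (range -0.25 to 0.75). These are descriptions over the 6 to 35 neurons of an animal, whose values share 1 recording. How AHP_new was measured is not stated, and its values ran from 2.75 to 238 over neurons.

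**Figure D2:**
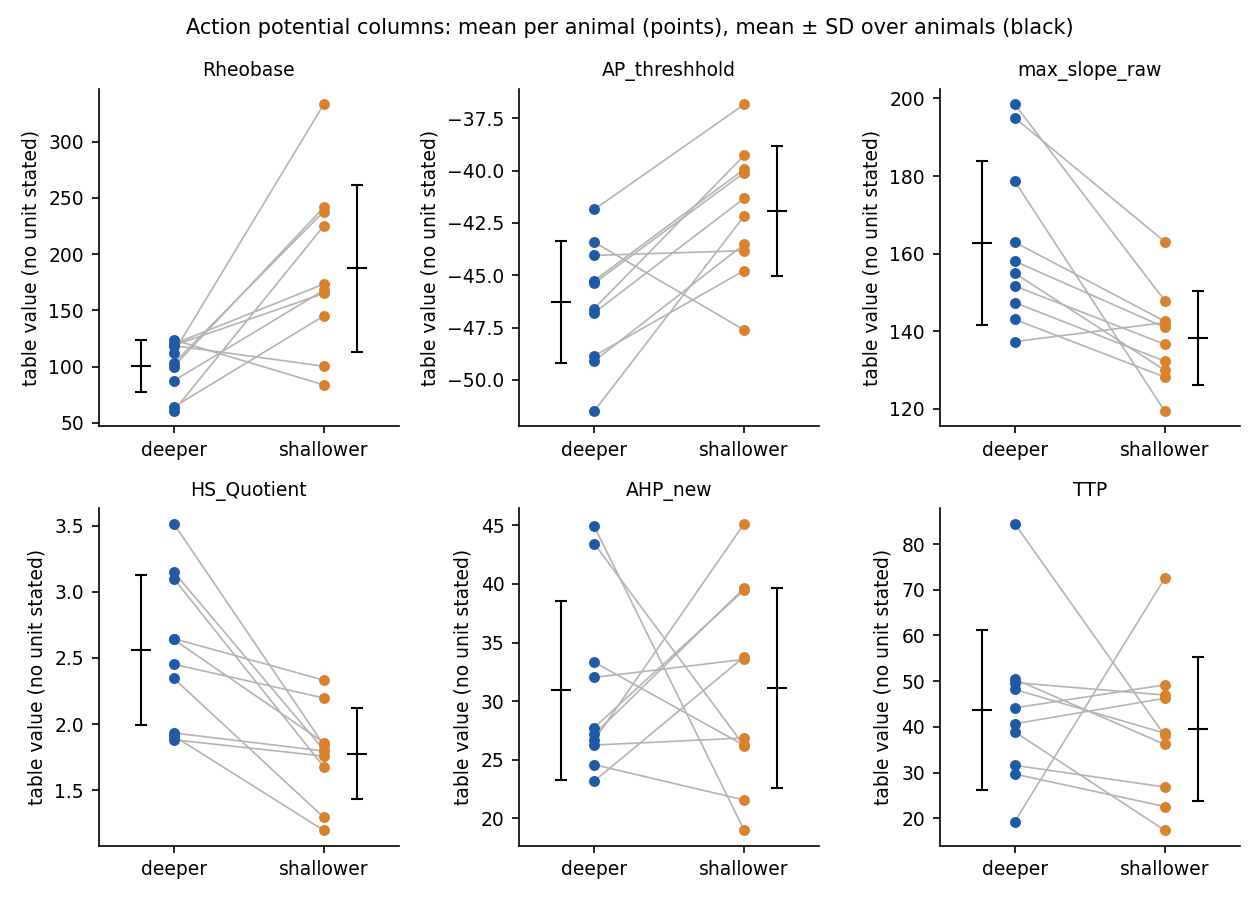
Animal means of 6 columns of the cell table (vertical axes, table values without stated units; the axes do not start at 0) in deeper (blue) and shallower (orange) neurons, joined per animal, with the mean ± SD over 10 animals in black. Lines rise towards the shallower group for Rheobase in 8 of 10 animals and fall for HS_Quotient in all 10, while those of AHP_new and TTP cross.

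The columns X2Hz to X100Hz, which the split did not use, were tested. Each is named for a frequency and holds values up to 20; the table does not say what is counted, and they are called following values here. At 2 Hz animal means ran from 16 to 20.0 with a median of 19.5 in the deeper and from 16.7 to 20.0 with a median of 19.7 in the shallower neurons. At this frequency 87.9% of deeper and 88.1% of shallower neurons stood at 20. At 20 Hz the means were 15.9 ± 2.43 and 16.2 ± 2.29 (SD, n = 10), with 70.1% and 63.6% of neurons at 20. The order turned at the higher frequencies. At 50 Hz the means were 11.9 ± 3.11 and 10.9 ± 2.56, and at 100 Hz 6.73 ± 1.87 and 5.79 ± 1.92, higher in the deeper group in 6 and 7 of 10 animals.

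None of the 6 following values differed beyond the spread between animals. In a two-sided exact sign-flip permutation test over 10 animals, whose smallest possible p is 0.00195, adjusted p (Benjamini-Hochberg over the 6) ran from 0.451 to 0.760. The interval of the difference (95%, by inverting that test) was -1.50 to 0.236 at 2 Hz, -2.20 to 1.79 at 20 Hz, -2.06 to 3.87 at 50 Hz and -1.07 to 2.74 at 100 Hz. At 10 Hz the difference was -0.56 (interval -1.72 to 0.577). With the split by depth below RMP_beforeAP, chosen after the data had been seen, it was -1.17 with an adjusted p of 0.0469 in the same exact test, the 1 of 6 columns to pass. When the differences were averaged over days within each animal, the direction turned at 4, 10 and 20 Hz, to 0.104, 0.196 and 0.589. Without animal 6, where the shallower neurons were higher at 100 Hz, the 100 Hz difference was 1.64 with an adjusted p of 0.164 in the exact test. Among the 6 animals with both groups at 1 and at 2 days, the difference between days in the size of the effect passed for none of these columns or the size and passive columns (adjusted p by exact sign-flip test 0.602 to 0.969).

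**Figure D3:**
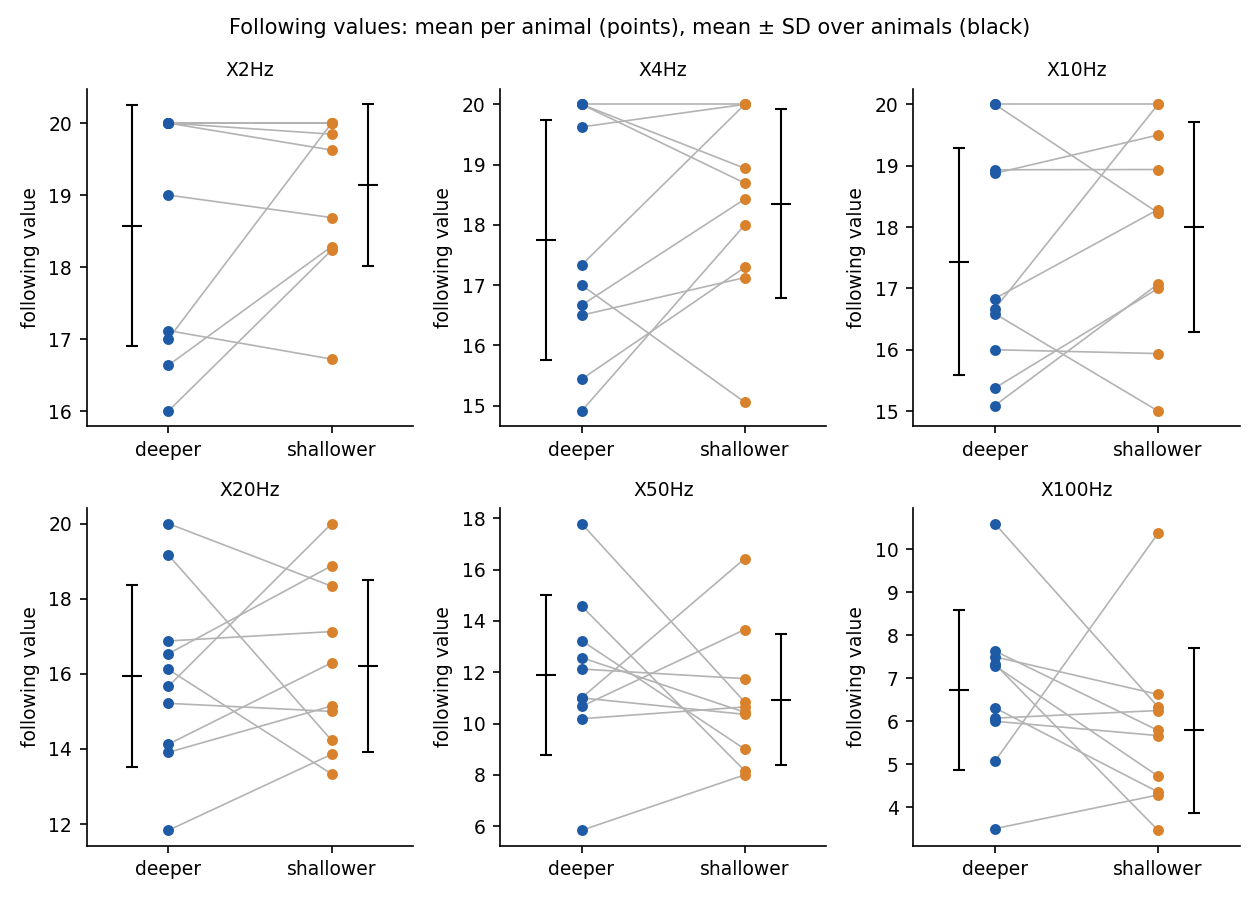
Following values at 2, 4, 10, 20, 50 and 100 Hz (vertical axes, table values up to 20; the axes do not start at 0): animal means in deeper (blue) and shallower (orange) neurons, joined per animal, with the mean ± SD over 10 animals in black. The lines cross at every frequency, and the 2 groups overlap throughout.

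Size and passive properties did not differ beyond the spread between animals either. The resting potential (RMP) had animal means of -63.8 to -52.2 with a median of -58.7 in the deeper and of -61.9 to -50.6 with a median of -55.9 in the shallower neurons. The difference was -2.94 (interval -6.42 to 0.5677), with the deeper group lower in 6 of 10 animals, an exact sign-flip p of 0.0840 and an adjusted p of 0.420 over 5 columns. With neurons at 1 day only it was -5.58 (adjusted p = 0.0586, exact test), and within OSMR-low neurons 0.506 (adjusted p = 0.723). Cell diameter was 36.7 ± 2.27 and 37.8 ± 2.40 (difference -1.11, interval -3.50 to 1.18), and the slow capacitance (cslow), a measure of membrane area, 73.4 ± 18.8 and 75.1 ± 14.2. Input resistance (input_res) was 0.255 ± 0.0767 and 0.233 ± 0.112, with medians over neurons of 0.215 and 0.145. The adjusted p of these 4 size and resistance columns, the second resistance column included, was 0.796 to 0.811. Within animals, the rank correlation across neurons of Min_AHP with input_res averaged -0.35 (range -0.61 to 0.09). With RMP it averaged 0.25 (range -0.24 to 0.55), with diameter 0.16 and with cslow 0.08. These correlations are descriptions and were not tested. The columns HS_Threshold, Sinusscore_new and Spontan_active, tested together after their values had been seen, gave adjusted p of 0.445 to 0.631 in the same exact test. The share of spontaneously active neurons, as Spontan_active codes it, was 0.276 ± 0.177 in the deeper and 0.226 ± 0.162 in the shallower group.

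Shares of 3 marker genes of neuron classes were compared next. OSMR, the oncostatin M receptor subunit of itch- and pain-related C-fibres, reached 10 CPM in 0.0% to 63.6% of an animal's deeper neurons (median 33.3%) and in 12.5% to 85.7% of its shallower neurons (median 51.9%). The mean shares were 39.5% ± 20.3 and 50.2% ± 24.1 (SD, n = 10), lower in the deeper group in 7 animals, with an exact p of 0.133 and an adjusted p of 0.398 over 3 genes. The interval of that difference was -25.5 to 2.79 percentage points, and with the split by depth below RMP_beforeAP the difference was 1.02 points in the other direction. ADCYAP1, the neuropeptide PACAP, was carried by 83% ± 14.1 and 77.3% ± 16.6 of neurons, and TRPM8, the cold receptor, by 37.6% ± 16.7 and 40.2% ± 23.9. Depth and RNA quality did not differ beyond the spread between animals: the mean log2 total count was 19.52 in both, genes with a read numbered 13006 ± 1467 and 13091 ± 1734, and the mitochondrial share was 5.42% ± 2.18 and 5.05% ± 1.98, with adjusted p of 0.986 for each in the exact sign-flip test. Total counts ran from 109726 to 5506278 per neuron.

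No gene passed the test between deeper and shallower neurons. Counts were summed per animal and group, 20 sums of 1707037 to 44590347 counts, and compared within animals with edgeR's quasi-likelihood test. Of 17478 genes tested 0 passed a Benjamini-Hochberg adjusted p of 0.05 in either direction, a called share of 0.0%, and 530 (3.03%) had an unadjusted p under 0.05, 259 higher and 271 lower in the deeper neurons. DESeq2 and limma called 0 as well, with 957 and 544 genes at an unadjusted p under 0.05. Fold changes below are log2 values, positive where the deeper neurons were higher, with their standard error; levels are log2 CPM of the sums. Every gene named from this comparison had an adjusted p of 1.00, so values are given and no gene is said to have changed. In bulk sums of this kind, fewer neurons carrying a gene and less RNA per neuron cannot be told apart, so the number of neurons at 10 CPM is given beside some genes.

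The precision depended on the level of a gene. Of 8085 genes with a mean log2 CPM of at least 3, 7166 (88.6%) had a 95% interval that lay within 2-fold in either direction. Of the tested channel, pump and calcium genes 56 (53.8%) did, and 47 of the 58 among them that reached that level (81%). Of the 44 potassium channel genes among them, at any level, 18 (40.9%) did. On simulated counts for the comparison of all neurons, run on 16592 genes, the test recovered 64% of 100 genes changed 2-fold and 100% of 100 changed 4-fold, and called 6 unchanged genes. That run held 200 changed genes, which eases the adjusted threshold, whereas no gene passed in the recorded neurons. Its shares do not carry over to genes with a large standard error, such as KCNA2 (0.59) and KCNH8 (0.61), beside a median of 0.32 over all tested genes.

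The tested calcium-activated and sodium-activated potassium channel genes had intervals that held 0. KCNMA1, the BK channel, had a level of 2.49 to 5.29 (median 4.30) in the deeper and of 3.25 to 5.04 (median 4.03) in the shallower sums. Its fold change was 0.21 ± 0.27, higher in 6 of 10 animals, and it reached 10 CPM in 48.6% and 50.4% of neurons. KCNN3, the SK channel above the filter on low counts, had a fold change of -0.08 ± 0.34 (95% interval -0.80 to 0.65) and reached 10 CPM in 52.3% and 50.4% of neurons. The BK beta subunits KCNMB2 and KCNMB4 were at -0.13 ± 0.47 and -0.03 ± 0.36, and KCNT2, a sodium-activated potassium channel, at 0.18 ± 0.31. LRRC52, an auxiliary subunit of BK-type channels, had the highest fold change of the list, 0.66 ± 0.37 (95% interval -0.11 to 1.44), and was higher in 8 of 10 animals. The mean level of LRRC52 was low, 1.03 in the deeper and 0.32 in the shallower sums, and it was picked after its value had been seen. Of this list's 14 members with an identifier 6 passed the filter, none with an unadjusted p under 0.05, and their median was 0.08 beside -0.01 over all tested genes. KCNN1, KCNN2 and KCNT1 were under the filter.

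Among the voltage-gated potassium channels 4 genes had an unadjusted p under 0.05 (edgeR), where 3.03% of all tested genes did. KCNA2, the delayed rectifier Kv1.2 that damps firing near threshold, had a level of -1.11 to 2.82 (median 1.60) in the deeper and of -2.50 to 4.39 (median 2.39) in the shallower sums. Its fold change was -1.54 ± 0.59 (unadjusted p = 0.0195, edgeR), it was higher in the deeper group in 2 of 10 animals, and it reached 10 CPM in 9 deeper and 25 shallower neurons. KCNAB1, a beta subunit of Kv1 channels, was at -0.62 ± 0.24, and 46 deeper and 67 shallower neurons carried it. KCNH8, an Elk-type channel, was at -1.29 ± 0.61, carried by 14 and 33 neurons. KCND1, the A-type channel Kv4.1, stood on the other side, at 0.75 ± 0.30 (unadjusted p = 0.0222, edgeR) and higher in 9 of 10 animals, with 40 deeper and 34 shallower neurons at 10 CPM. None of the 4 passed after adjustment, and KCNAB1 and KCNH8 are named because their values were seen. In the Kv1 to Kv4 list 22 of 32 members were tested, 1 with an unadjusted p under 0.05 higher and 2 lower, with a median of -0.09; in the Kv7 and EAG list 5 of 16 were tested, with a median of -0.37.

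The other potassium channels had intervals that held 0. KCND3, another A-type channel, was at 0.32 ± 0.27 and KCNIP4, an accessory protein of A-type channels carried by most neurons, at -0.31 ± 0.17. KCNB2, a Kv2 delayed rectifier, was at -0.18 ± 0.50, and KCNC4, a fast Kv3 channel, at 0.15 ± 0.27. KCNA1 and KCNG3 were sparse, with 12 and 14 deeper neurons at 10 CPM, and were at -0.23 ± 0.57 and -0.34 ± 0.63. KCNQ5, a channel of the M-current, was at -0.37 ± 0.31, and KCNK2, the leak channel TREK-1, at -0.30 ± 0.37. KCNC1, KCND2, KCNQ3 and KCNH2 were under the filter, and KCNK18 has no value here. Of the leak and inward rectifier list 11 of 23 members were tested, none with an unadjusted p under 0.05.

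**Figure D4:**
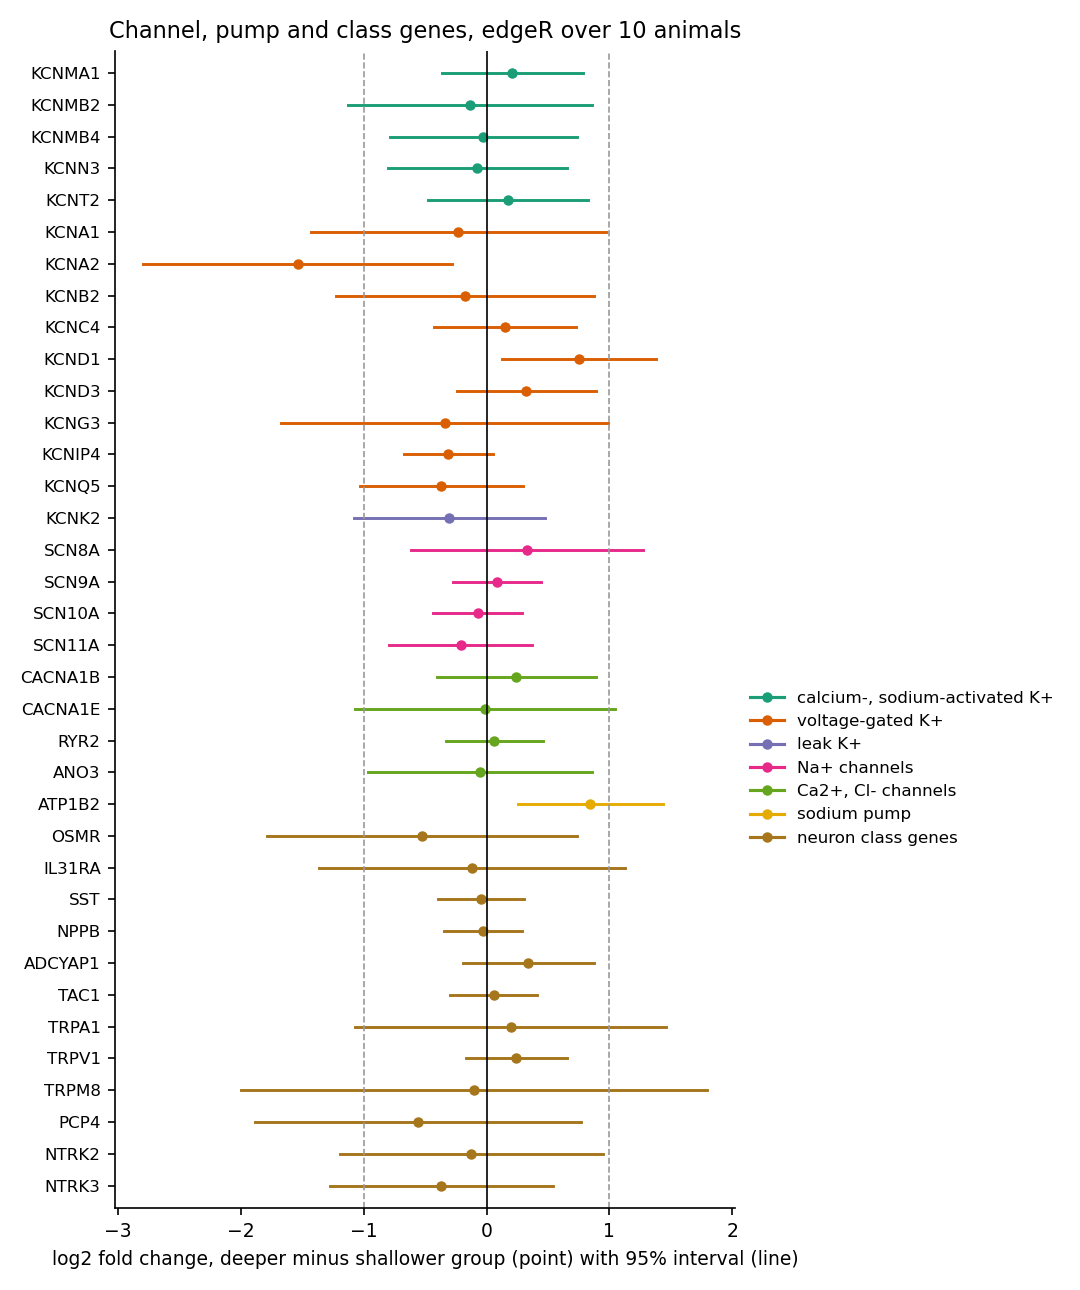
Log2 fold change of deeper against shallower neurons (point) with its 95% interval (line) for the named channel, pump and neuron class genes in edgeR over 10 animals, coloured by gene family; the dashed lines mark 2-fold in each direction. The intervals of KCNA2, KCND1 and ATP1B2 leave out 0 before adjustment, and those of KCNMA1, KCNN3 and the sodium channels SCN9A, SCN10A and SCN11A lie within the dashed lines and hold 0.

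Of the sodium channels, SCN9A (Nav1.7), which amplifies small depolarisations, was at 0.08 ± 0.17, SCN10A (Nav1.8), which carries the upstroke in nociceptors, at -0.07 ± 0.17, and SCN11A (Nav1.9), a persistent current near rest, at -0.21 ± 0.28. SCN8A, the channel of myelinated axons, was at 0.33 ± 0.45. Of 12 tested members of the sodium channel list none had an unadjusted p under 0.05, and the median was -0.06.

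Of 12 tested calcium channel genes 1, and of 21 tested calcium handling genes 1, had an unadjusted p under 0.05 (edgeR), where 3.03% of all tested genes did. CACNA1B, the N-type channel, was at 0.24 ± 0.31, CACNA1E, the R-type channel, at -0.01 ± 0.50, and RYR2, the calcium release channel of internal stores, at 0.06 ± 0.19. STAC, an adaptor of voltage-gated calcium channels, was at -0.24 ± 0.10, higher in the deeper group in 1 of 10 animals. ATP2B4, a calcium pump of the plasma membrane, was at 0.45 ± 0.15 and higher in 9 of 10 animals. Both had an unadjusted p under 0.05 (0.0348 and 0.0106, edgeR), were picked after their values had been seen, and did not pass after adjustment. CACNA1C, CACNA1H and the calcium-activated chloride channel ANO1 were under the filter; ANO3, a family member, was at -0.05 ± 0.43.

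ATP1B2, the beta-2 subunit of the sodium pump, had a level of 3.87 to 7.99 (median 6.69) in the deeper and of 1.10 to 7.52 (median 5.68) in the shallower sums. Its fold change was 0.84 ± 0.28 (95% interval 0.25 to 1.43; unadjusted p = 0.00798, edgeR), and it was higher in 8 of 10 animals. ATP1B2 is also a gene of satellite glia, and the summed level of 12 satellite glia genes was 139.3 to 1227 CPM over animals (median 712) in the deeper and 116.4 to 1380 CPM (median 868) in the shallower neurons, higher in the deeper group in 3 of 10 animals; its part in the difference was not tested.

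Genes that mark classes of sensory neuron spread widely between animals. OSMR was at -0.52 ± 0.60 (95% interval -1.79 to 0.74), and its partner receptor subunit IL31RA at -0.12 ± 0.59. SST (somatostatin) and NPPB (a natriuretic peptide), transmitters of itch-related C-fibres, were at -0.04 ± 0.17 and -0.03 ± 0.15. The peptide genes TAC1 (substance P) and ADCYAP1 were at 0.06 ± 0.17 and 0.34 ± 0.25, and the receptors TRPV1 (heat and capsaicin) and TRPA1 (irritants) at 0.24 ± 0.19 and 0.20 ± 0.60. TRPM8 was at -0.10 ± 0.89, with 39% of its deeper and 37.1% of its shallower counts from a single neuron each. PCP4, a calmodulin-binding protein, was at -0.56 ± 0.63. None of these had an unadjusted p under 0.05.

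Among the 11 tested genes of peptidergic nociceptors, GAL (galanin, 0.63 ± 0.25) had an unadjusted p under 0.05 on the higher side and OPRM1 (the mu opioid receptor, -0.33 ± 0.13) on the lower. Over all tested genes 3.03% had such a p in either direction (edgeR). The list's median was 0.24 beside -0.01 over all tested genes. NTRK2 and NTRK3, neurotrophin receptors of A-fibre neurons, were at -0.13 ± 0.51 and -0.37 ± 0.43, and none of 11 tested A-fibre genes had an unadjusted p under 0.05.

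The genes with the smallest p among those with a symbol and a mean log2 CPM of at least 3 were in none of the channel lists. On the higher side, MRI1, an enzyme of methionine salvage, had a level of 4.198 to 6.19 (median 4.78) in the deeper and of 2.93 to 5.14 (median 4.30) in the shallower sums, with a fold change of 0.87 ± 0.24. TRMT10B, a transfer RNA methyltransferase, had a level of 3.26 to 4.75 (median 4.29) against 2.23 to 3.67 (median 3.36) and was higher in 10 of 10 animals. MKNK2, a kinase of the translation factor eIF4E, ZMAT2, a splicing factor, GGA1, an adaptor of the trans-Golgi network, GARNL3, PPP2R1A, the scaffold of phosphatase PP2A, SCUBE1 and ADPRS, a hydrolase that removes ADP-ribose, were also among these genes, with fold changes of 0.51 to 0.89. GARNL3 and SCUBE1 were also higher in 10 of 10 animals. Counted by neuron, SCUBE1 reached 10 CPM in 43.9% of deeper and 34.5% of shallower neurons. For GARNL3 these shares were 51.4% and 52.1%, with medians over neurons of 10.1 and 10.6 CPM, and for PPP2R1A they were 67.3% and 67.2%.

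On the lower side, MTFMT, which formylates the mitochondrial initiator transfer RNA, had a level of 3.55 to 5.21 (median 4.21) in the deeper and of 4.09 to 5.79 (median 4.96) in the shallower sums. Its fold change was -0.67 ± 0.17, it was higher in the deeper group in 0 of 10 animals, and 56 deeper and 83 shallower neurons carried it at 10 CPM. DECR1, a mitochondrial enzyme of fatty acid oxidation (-0.55 ± 0.17), and FAM151B (-0.86 ± 0.26) were likewise lower in all 10 animals. RABEPK, an effector of the Rab9 transport pathway, was at -1.19 ± 0.34 and SLC4A10, a bicarbonate transporter of neurons, at -1.14 ± 0.33. ADIRF, RAPGEF4 (a cAMP sensor, EPAC2), SPRED1 (an inhibitor of Ras signalling), PARP12 and MGLL (which degrades an endocannabinoid) lay between -0.95 and -0.51. None of these genes passed the test, and a set chosen for its p values within the same comparison is a description of these libraries.

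Within OSMR-low neurons the comparison was less precise and again called no gene. It held 58 deeper and 58 shallower neurons of 9 animals, in sums of 1045440 to 24291377 counts. Of 13522 genes 0 passed in edgeR (0.0% called), and 292 (2.16%) had an unadjusted p under 0.05. DESeq2, with 717 at an unadjusted p under 0.05, called 7: FBXO9 (1.32 ± 0.26), a ubiquitin ligase subunit, EEIG2 (0.97 ± 0.21), CXCL8 (3.00 ± 0.65), the chemokine interleukin-8, MEIOB (2.13 ± 0.47), PLEKHO2 (2.08 ± 0.49) and 1 gene without a symbol higher, and RORA (-2.82 ± 0.63), a nuclear receptor, lower. All 7 had an adjusted p of 1.00 in edgeR.

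The level of EEIG2 in the OSMR-low sums was 6.73 to 7.99 (median 7.31) in the deeper and 5.58 to 6.85 (median 6.28) in the shallower neurons, and that of FBXO9 was 3.41 to 6.399 against 2.41 to 5.73; both were higher in 9 of 9 animals. The ranges of EEIG2 overlapped only narrowly. The others rested on few neurons: CXCL8 reached 10 CPM in 14 deeper and 4 shallower neurons, with 44.1% of its deeper count from 1 neuron, RORA in 3 and 12, MEIOB in 11 and 4 and PLEKHO2 in 18 and 4. The remaining leading genes by p, none of which passed any tool, were MFSD8 (a lysosomal membrane protein), MRI1 and CDC42BPB (a kinase of the actin cytoskeleton) at 1.24 to 1.48 and RUNX1T1 (a transcriptional repressor), TUFT1, AHCY (which clears S-adenosylhomocysteine), COPS2 (a subunit of the COP9 signalosome) and TBL2 at -1.58 to -0.59.

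The channel genes in OSMR-low neurons had wide intervals. KCNMA1 was at 0.70 ± 0.50, KCNN3 at 0.84 ± 0.56 and KCNT2 at 0.95 ± 0.87, each with an interval that held 0. Of 80 tested channel, pump and calcium genes 6 had an unadjusted p under 0.05 (edgeR), where 2.16% of all tested genes did, and none passed after adjustment. On the lower side were KCNH7, an Erg-type potassium channel, at -2.89 ± 1.20, VSNL1, a calcium sensor, at -1.43 ± 0.67, KCNK1, a leak channel, at -1.08 ± 0.40, ATP1B1, a beta subunit of the sodium pump, at -0.98 ± 0.44, and STAC at -0.57 ± 0.25. CACNB1, a calcium channel beta subunit, was at 1.35 ± 0.51. KCNH7 reached 10 CPM in 3 deeper and 9 shallower neurons, and these 6 genes were picked after their values had been seen. ATP1B2 was at 0.42 ± 0.32 here (95% interval -0.27 to 1.10), higher in 5 of 9 animals. SCN9A was at 0.25 ± 0.25 and SCN10A at -0.01 ± 0.38. Of the 80 genes 20 (25%) had a 95% interval within 2-fold, and of the 30 potassium channel genes among them 3 (10%). TRPM8 was at -2.12 ± 0.83 (unadjusted p = 0.0216, edgeR) with 69% of its deeper count from 1 neuron, and SST at 0.89 ± 0.46. KCNA2 was under the filter here, and so was OSMR.

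Markers of other cell types were detected in both groups. Macrophage genes summed to 31.5 to 1387 CPM over animals (median 254) in the deeper and 54.2 to 620 CPM (median 188.8) in the shallower neurons, higher in 5 of 10 animals. AIF1 and TYROBP, 2 of the 12 tested macrophage genes, were at 1.68 ± 0.65 and 1.59 ± 0.60. Both had an unadjusted p under 0.05 (edgeR), where 3.03% of all tested genes did. Schwann cell genes summed to 741 to 1734 CPM and 978 to 1586 CPM, and fibroblast and vascular genes to 17.3 to 162.4 CPM and 15.9 to 427 CPM, the latter higher in the deeper group in 2 of 10 animals. None of the markers with an identifier was at 0 in either group, and the part of such RNA in the gene values was not tested. Without the filter on low counts edgeR called 1 gene, RGS5, a gene of vascular pericytes, at -4.46 ± 0.75 (adjusted p = 0.0460); it reached 10 CPM in 3 deeper and 8 shallower neurons, and 92.2% of its deeper count came from 1 neuron.

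Genes of culture stress did not separate the groups after adjustment. Of 16 tested axotomy and regeneration genes, GAL and VGF (a neuropeptide precursor, 0.86 ± 0.35) had an unadjusted p under 0.05 on the higher side, and of 9 immediate early and stress genes CDKN1A (the cell cycle inhibitor, 0.72 ± 0.29) did. Over all tested genes 3.03% had such a p in either direction (edgeR). VGF was higher in 9 of 10 animals. The 13 mitochondrially encoded genes lay between -0.08 and 0.27, all with intervals within 2-fold.

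**Figure D5:**
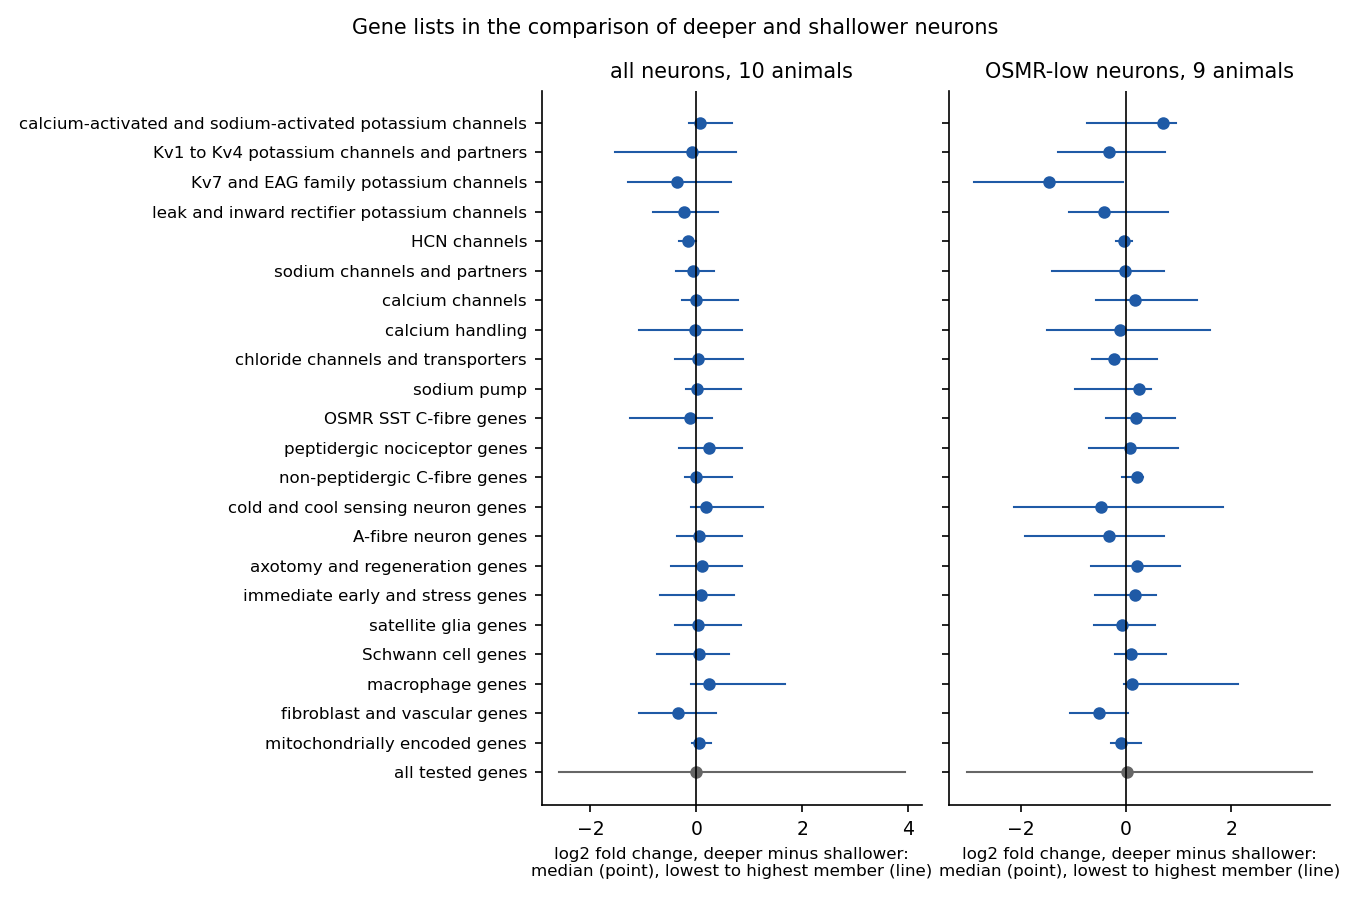
Median log2 fold change of deeper against shallower neurons (point) and the lowest to the highest tested member (line) for each of 22 gene lists and for all tested genes (grey), in all neurons (left) and in OSMR-low neurons (right). In all neurons the list medians lie between -0.37 and 0.24, beside -0.01 over all tested genes.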

How the data were processed

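Single cultured pig neurons were recorded and sequenced by Smart-Seq2, per the labels' protocols; bcl2fastq 2.20 is named in the submitters' processing notes, and the aligner, counter, genome build and strand setting were not stated. The deposited table holds estimated counts per gene and neuron (30420 genes, 52.1% of values above 0 not whole), which the authors had not scaled to depth; no molecular identifiers are named, so counts are read as reads. The deposited cell table gives recorded values without units, and 43 of its 269 lines belong to no sample analysed here. Of the gene identifiers 14867 had a symbol.

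The 226 neurons were split by Min_AHP within 22 combinations of animal and day into 107 deeper and 119 shallower ones. Counts were summed per animal and group, rounded, filtered with filterByExpr and fitted with edgeR 4.0.16 (R 4.3.3; quasi-likelihood test, TMM, animal as block, Benjamini-Hochberg threshold 0.05). Both groups come from the same animals, which is where the pairing comes from. Levels are log2 CPM with a prior count of 2. Alternatives used DESeq2 1.42.0, limma 3.58.1, other filters, splits and days. Recorded columns were compared as animal means with a two-sided exact sign-flip permutation test (numpy 2.4.6). Columns of the action potential were described without a test, because the split used it. So was HS_Quotient, whose origin is not stated. The scripts were tested on simulated data.

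Named genes were the 10 per direction (5 in OSMR-low neurons) with the smallest p among genes with a symbol and a mean log2 CPM of at least 3, as none passed, and 54 genes of channels and neuron classes whatever their values. A few of the genes so chosen are not reported here. The members and lists were chosen with earlier results of these data known. The split by Min_AHP minus RMP_beforeAP and the family of HS_Threshold, Sinusscore_new and Spontan_active were added, and RMP_beforeAP left untested, after the data had been seen. AHP_new had been planned as a second depth; its split was run for overall counts.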

Additional observations from a re-analysis of the deposited data

Results flagged for a closer look

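Of 80 sets of 10 animal differences (deeper minus shallower) looked at, 7 held an animal far from the other 9; chance gives about 1 in 20. For the value at 100 Hz, animal 6 stood at -5.31 while the others ran from -0.786 to 4.27. For Spontan_active, animal 8 stood at 0.667 and the others from -0.25 to 0.214. Animal 8, with 3 neurons in each group, also stood apart for 4 genes on the log2 CPM scale: SCUBE1 at 3.68, SLC4A10 at -4.17, ANO3 at 4.52 and IL31RA at 6.94. Without that animal their fitted log2 fold changes were 0.70, -0.91, -0.32 and -0.48. For SST, animal 10 stood at 1.31, and the fold change without it was -0.18.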

How the results depend on the processing

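In all neurons edgeR called 0 genes with DESeq2's size factors, with no replicate block (493 at an unadjusted p under 0.05), in sums per animal and day, with 1 median over all neurons, at 1 or 2 days only, without neurons under 300000 counts and with the splits by AHP_new or by depth below RMP_beforeAP; DESeq2 and limma also called 0. Unadjusted counts ran from 160 to 957. Without a filter on low counts 1 gene, RGS5, passed. In OSMR-low neurons DESeq2 called 7 and the other settings 0, with no replicate block included (402 unadjusted). Leaving out 1 animal at a time gave 0 to 0 called in both comparisons, among the following values and among the size and passive columns. The split by depth below RMP_beforeAP gave 1 following value that passed (X10Hz, -1.17). Of 2170 alternatives for single genes and columns 2167 kept their call; EEIG2 and FBXO9 (DESeq2, OSMR-low) and X10Hz passed only in an alternative. The cause of these changes was not tested. Of 60 named genes in all neurons 18 kept their sign in every alternative, and of 45 in OSMR-low neurons 26. Intervals are those of the mean difference, judged by the spread between animals, and single animals can lie outside them. Low-count genes remain imprecise.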
